A study of Homo sapiens with 6 samples.

Results

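The regions described here are the open chromatin regions of 3 large zinc finger gene clusters of human chromosome 19 in the human lung carcinoma line H1155. Overlapping peaks of 6 ATAC-seq libraries (1 bp or more) were merged, and a region was a member if it lay wholly within 19.8 to 24.6 Mb, 52.4 to 54.1 Mb or 56.4 to 59.1 Mb of chromosome 19. This gave 250 members among 149765 merged regions. The short-arm cluster (4.8 Mb) held 71 members, the middle cluster (1.7 Mb) 50 and the terminal cluster at the end of the long arm (2.7 Mb) 129. ATAC-seq marks open chromatin by letting a transposase insert sequencing adapters into it. The study compared 3 libraries of control cells with 3 libraries of cells that express a chimera, which the sample titles call TA. Both groups are the same cell line, were prepared with the Omni-ATAC protocol and were biological triplicates per the labels, which describe neither the chimera nor what the control cells received.

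KRAB zinc finger proteins form the largest family of human transcription factors. Each binds DNA through an array of zinc fingers, and its KRAB domain recruits the corepressor TRIM28, which brings in the histone methyltransferase SETDB1 and heterochromatin proteins. Many of these proteins silence transposable elements. Their genes arose by repeated tandem duplication and lie side by side, ZNF91 in the short-arm cluster, ZNF28 in the middle cluster and ZNF274 in the terminal cluster among them. The gene bodies of such clusters are known to carry heterochromatin marks, while the promoters stay open. In RefSeq, 266 of 567 protein-coding genes with a zinc finger family symbol (46.9%) lay on chromosome 19. The coordinates of the peak lists fit the older build hg19 and RefSeq's gene table is on GRCh38, so no member was linked to a gene and no sequence was read.

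The lists held 85730 to 109321 peaks per library, of which 187 to 220 lay in members. No read totals were used here, so depth was taken from the peaks: the number of fragments piled up at each summit (the summit pileup) could be recovered from the deposited fold and p-value. The pileup at the strongest peak of a member ran from 10 to 311, with medians of 46.0 to 61.0 per library. The genome-wide background pileup was 2.53, 2.94 and 3.05 in control libraries 1 to 3 and 3.21, 2.74 and 3.77 in TA libraries 1 to 3.

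Open regions in the clusters were few, and their folds were high. The control libraries had 22.8, 21.6 and 23.9 peaks per Mb in the clusters, and the TA libraries 20.8, 20.7 and 20.3. The rest of chromosome 19 had 64.2 to 77.6 peaks per Mb in the same libraries. The log2 ratio of the densities was −1.69 ± 0.0752 (SD, n = 6), below 0 in 6 of 6 libraries (exact sign-flip permutation over libraries, two-sided, adjusted p = 0.0312 over 8 tests, the smallest that 6 libraries allow). The short-arm cluster was the sparsest, at 7.92 to 10.8 peaks per Mb, the middle cluster had 26.5 to 30.0 and the terminal cluster 37.4 to 43.7. Each cluster differed from the rest of the chromosome in 6 of 6 libraries, with log2 ratios of −2.91, −1.31 and −0.82 in that order (exact sign-flip permutation, adjusted p = 0.0312 each). Here and for the fold, this test asks only whether the contrast recurs between libraries of 1 cell line. The rest was counted without the longest stretch that held no peak (4.05 Mb) where it lay outside the windows. The windows kept their full length, also 24.3 to 24.6 Mb, which held 0 members.

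The peaks that were present rose further above their surroundings than those elsewhere on the chromosome. The fold of a peak is the authors' value: the pileup at the summit over the library's own local background. The median fold of peaks in the clusters was 9.07, 8.04 and 10.2 in control libraries 1, 2 and 3 and 8.41, 9.49 and 8.95 in TA libraries 1, 2 and 3. In the rest of chromosome 19 it was 5.06 to 5.80. The difference of medians was 0.72 ± 0.0882 on the log2 scale (SD, n = 6), above 0 in 6 of 6 libraries (exact sign-flip permutation, adjusted p = 0.0312). It was 0.89 in the short-arm, 0.60 in the middle and 0.77 in the terminal cluster, with the same adjusted p (exact sign-flip permutation). In the short-arm cluster it was 0.60, 0.74 and 0.84 in control and 0.95, 0.99 and 1.24 in TA libraries, without overlap between groups, a difference that was not tested. These medians are over each library's own peaks. Over the short-arm regions called in all 6 libraries, the median relative to all such regions was 1.02, 0.99 and 0.97 in control and 0.98, 0.97 and 1.06 in TA libraries, with overlap. With any 1 library left out, 5 libraries cannot give a p below 0.0625.

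Of the 250 members 138 (55.2%) were called in all 6 libraries, against 37.8% of all regions and 47.3% of the 4449 regions in the rest of chromosome 19. These shared members numbered 26 in the short-arm, 32 in the middle and 80 in the terminal cluster. They were wide, with a median of 959 bp against 723.5 bp in the rest of the chromosome and 739 bp over all shared regions. Their median fold, averaged over the libraries on the log scale, was 10.6, against 7.0 in the rest of chromosome 19 and 7.04 over all shared regions. The local background in the denominator was lower in the clusters, at a median of 1.56 times the library's genome-wide rate against 2.49 in the rest of the chromosome. The median summit pileup was 76.8 in the short-arm, 42.8 in the middle and 73.3 in the terminal cluster, against 59.5 in the rest of chromosome 19, so in the middle cluster it was lower. In the short-arm cluster the median fold was 14.0, and 25 of its 26 shared members reached a fold of 8. Over the 3 clusters 111 of 138 (80.4%) did so, against 37.5% of all shared regions.

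Shared members stood apart from each other. The nearest other shared region was a median of 62.6 kb away in the short-arm cluster, 30.0 kb in the middle and 13.5 kb in the terminal cluster, against 6.14 kb in the rest of the chromosome. All 26 shared members of the short-arm cluster, 28 of 32 in the middle and 49 of 80 in the terminal cluster had no other within 10 kb. The longest stretch without a shared region ran over 584.5 kb, from 20163531 to 20748050 in the short-arm cluster, and held 2 weaker members. A stretch of 222.1 kb from 57262918 to 57485009 in the terminal cluster held 12 weaker members. The summits of the strongest peaks of a shared member lay a median of 48 bp apart at most across the 6 libraries, against 57 bp over all shared regions.

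**Figure D1:**
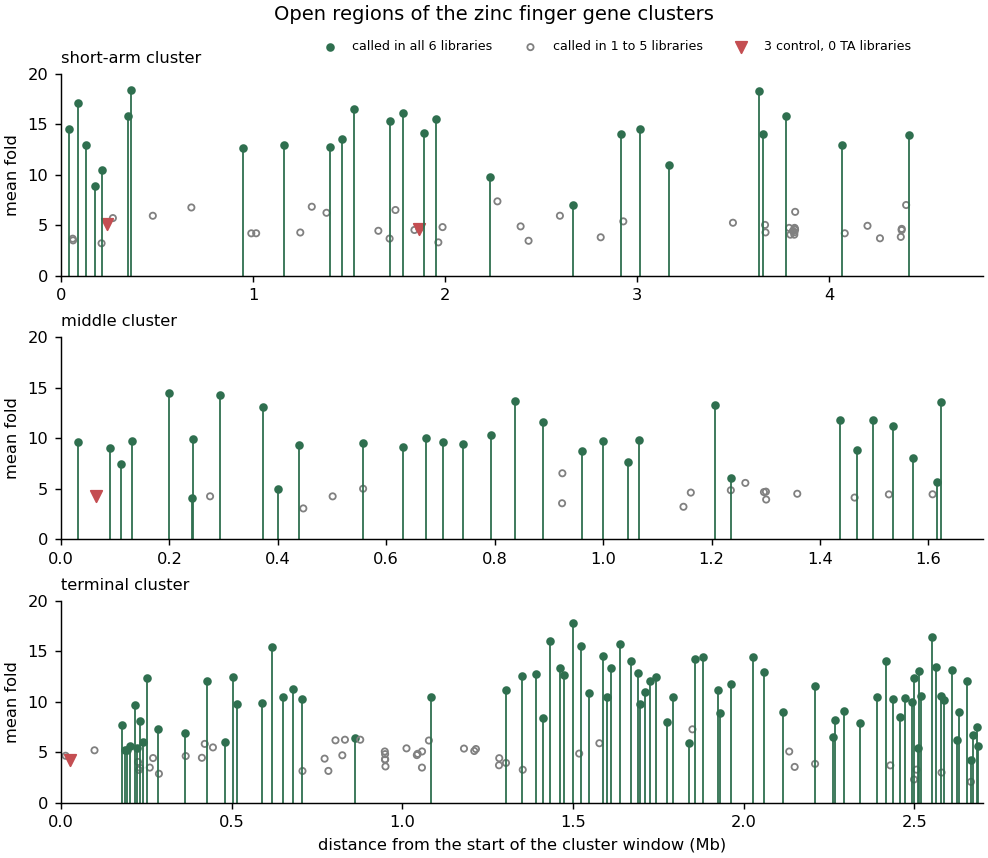
Mean fold of each member (geometric mean over the libraries with a peak, linear axis) against its distance in Mb from the start of its cluster window, for the 3 clusters. Green stems are members called in all 6 libraries, open circles members called in 1 to 5 and red triangles the 4 members called in 3 control and 0 TA libraries. The open circles lie at a fold of 7.36 or lower, and most stems end above 8.

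The region with the highest fold of all members lay in the short-arm cluster from 20162575 to 20163530. Its fold was 21.8, 15.2 and 21.8 in control libraries 1, 2 and 3 and 17.7, 17.8 and 17.1 in TA libraries 1, 2 and 3. The control libraries lay on both sides of the TA libraries. The region from 23432648 to 23433504 had folds of 16.4 to 19.5 in control and 18.1 to 19.1 in TA libraries, and that from 19886878 to 19887921 had 15.5 to 19.3 and 16.4 to 16.7. In the middle cluster the highest fold belonged to 52598369 to 52599333, at 14.6, 12.4 and 19.6 in control and 12.9, 16.2 and 12.3 in TA libraries. It was followed by 52692736 to 52694127, with 13.1 to 15.2 and 13.6 to 14.9, and by 53237527 to 53238561, with 11.6 to 17.2 and 12.5 to 14.8. In each of these regions the deposited folds of the groups overlapped. In the terminal cluster the highest fold belonged to 57900908 to 57901985, at 17.3, 17.7 and 18.9 in control and 16.6, 18.2 and 18.1 in TA libraries. The regions 58950992 to 58951973 and 57831233 to 57832579 followed, at 13.5 to 18.5 and 12.2 to 18.1 in control and 15.5 to 17.0 and 16.0 to 17.6 in TA libraries. With the folds centred on each library's median, as in the limma test, every TA library lay above every control library in 3 of these 9 regions, 23432648 to 23433504, 58950992 to 58951973 and 57831233 to 57832579. None of them passed that test. The widest members were 19843196 to 19844372 in the short-arm (1177 bp), 53289258 to 53290712 in the middle (1455 bp) and 58919137 to 58921104 in the terminal cluster (1968 bp). Their folds were 12.4 to 18.3, 8.03 to 14.3 and 9.54 to 11.6 over the 6 libraries, again with overlap between groups.

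Beside the shared members, the 112 members not called everywhere were narrow and weak, with a median width of 274.5 bp and a median fold of 4.51. Regions not called everywhere had medians of 277 bp and 3.97 over the whole series, and 283 bp and 3.74 in the rest of chromosome 19. The highest mean fold among the 112 members, 7.36, was that of 22072907 to 22073197, called in control 1 alone. Members called in 1 library alone numbered 14, 8 and 16 in control libraries 1, 2 and 3 and 5, 5 and 6 in TA libraries 1, 2 and 3. These made up 0.202%, 0.182% and 0.155% of the regions called in those control libraries alone and 0.0746%, 0.0670% and 0.0694% in the TA libraries. Every control library lay above every TA library in both measures, which were not tested.

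Fewer members were called in the TA libraries, by a difference that did not pass the test. Control libraries 1, 2 and 3 had a peak in 190, 172 and 206 members and TA libraries 1, 2 and 3 in 170, 174 and 170. The means were 189.3 ± 17.0 and 171.3 ± 2.31 (SD, n = 3 each), a difference of −18.0 (exact permutation test, two-sided, p = 0.2, adjusted p = 0.4 over 12 tests, where 3 against 3 cannot go below p = 0.1). Control 2 lay inside the TA range, and without control 3 the difference was −11.8. The middle cluster was called in 42, 39 and 45 members in control and 36, 35 and 37 in TA libraries, without overlap (exact permutation p = 0.1, adjusted p = 0.4). The short-arm cluster had 50, 40 and 50 against 40, 42 and 36, and the terminal cluster 98, 93 and 111 against 94, 97 and 97. As a share of all peaks of a library, members held 0.207%, 0.232% and 0.201% in control and 0.202%, 0.192% and 0.188% in TA libraries (difference −0.0197 points, exact permutation p = 0.2). Without control 2 that difference was −0.0104.

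**Figure D2:**
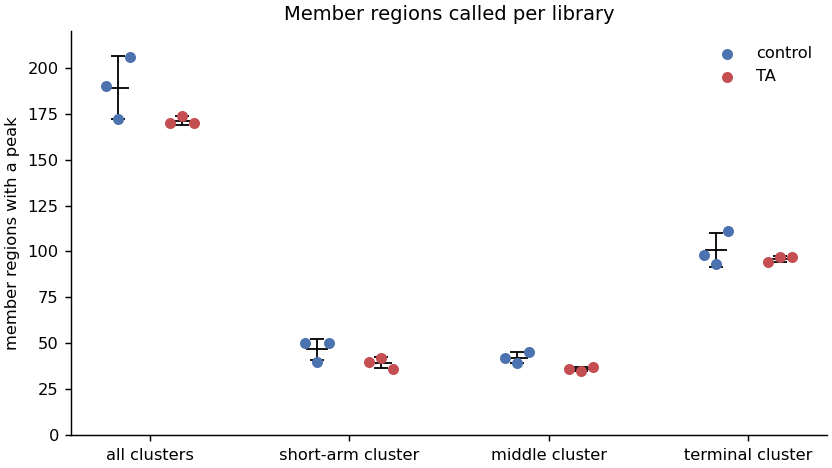
Number of member regions with a peak in each library (points), by cluster, with the mean and SD of each group (n = 3). Over all clusters the TA libraries lie between 170 and 174 and the control libraries between 172 and 206, and in the middle cluster the 2 groups do not overlap.

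Of the members called in 5 libraries, 11 (4.4%) were missing in 1 TA library, where 3.63% of all regions had that pattern, and 6 (2.4%) in 1 control library, where 4.11% had it. The single-library fold was highest in 21105810 to 21106354 in the short-arm cluster, missing in TA 3, with 8.77, 4.83 and 11.6 in control libraries 1, 2 and 3 and 4.52 and 6.68 in TA libraries 1 and 2. The region 21541531 to 21542151 in the same cluster, missing in TA 2, had 7.64, 5.33 and 11.4 in control and 4.99 and 5.03 in TA libraries 1 and 3. In the opposite direction 24201497 to 24202168, missing in control 2, had 6.51 and 6.67 in control libraries 1 and 3 and 8.56, 6.15 and 7.34 in TA libraries. In the first and the last of these the groups overlapped where a peak was called. These regions were chosen after their values were seen.

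No member was gained in TA, that is, called in 3 of 3 TA and 0 of 3 control libraries, where 0.621% of all regions were. The lost pattern, 3 of 3 control and 0 of 3 TA libraries, held 4 members (1.6%), where 0.799% of all regions had it. All 4 had low mean folds, of 4.23 to 5.13. In the short-arm cluster 20041226 to 20041553 had folds of 3.96, 4.32 and 7.90 in control libraries 1, 2 and 3, and 21666749 to 21666951 had 4.28, 4.19 and 5.68. In control 3 the deposited −log10 q of these regions was 18.8 and 10.4. In the middle cluster 52463678 to 52464329 had 4.81, 3.56 and 4.69, and in the terminal cluster 56425093 to 56425379 had 5.38, 3.56 and 3.95. No single region can pass a test of presence with 3 libraries against 3. Lost members numbered 7 without control 1 (2.89%, where 1.58% of all regions were lost) and 11 without control 2 (4.53%, where 2.91% were). Without control 1, 2 or 3 or without TA 1, 1 member was gained, where 0.777% to 1.63% of all regions were.

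More members were called in a larger number of control than of TA libraries. This held for 68 of 250 (27.2%), while 30 (12%) were called in more TA libraries. Over all regions the shares were 27.2% and 26.2%, and over the rest of chromosome 19 they were 25.6% and 19.7%. The difference between these shares was not tested. In the middle cluster 14 of 50 members were called in more control and 1 in more TA libraries, in the short-arm cluster 29 and 12 of 71, and in the terminal cluster 25 and 17 of 129. Exactly 2 control and 0 TA libraries called 9 members (3.6%), where 3.05% of all regions had that pattern. Of these the one from 58249750 to 58250033 had the highest fold, at 7.36 and 7.16 in control libraries 1 and 3. The opposite pattern was held by 1 member (0.4%), where 2.16% of all regions had it, and this region, 58609160 to 58609366, had folds of 3.99 and 3.70 in TA libraries 2 and 3.

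No shared member passed the test for a different fold in TA. Each library's log2 folds were centred on its median over the 56679 regions called in all 6 libraries, and limma was fitted over all of them. At a Benjamini-Hochberg adjusted p under 0.05, 0 of 138 members were higher and 0 lower in TA, where 0.00706% and 0.00353% of all tested regions were. At an unadjusted limma p under 0.05, 7 members were higher and 7 lower, where 5.7% and 5.58% of all were. The median difference over the members was 0.05 on the log2 scale, and 0.03 over all shared regions. Every TA library lay above every control library in 12 members (8.7%), where 9.5% of all shared regions did. Every TA library lay below in 5 members (3.62%), where 6.99% of all did. The median log2 fold of the shared members relative to all shared regions was 0.62, 0.60 and 0.60 in control and 0.64, 0.65 and 0.65 in TA libraries (difference 0.0402, exact permutation p = 0.1, adjusted p = 0.4). Without control 2 the difference was 0.0237.

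The members with the lowest p in either direction did not pass the limma test. Toward higher fold in TA they were led by 53606000 to 53607309 in the middle cluster, with folds of 12.9, 10 and 14.4 in control and 13.3, 15.4 and 14.2 in TA libraries (centred log2 difference 0.32 ± 0.0984 SE, limma adjusted p = 0.216). The next were 58325720 to 58326646, 57049515 to 57050751 and 57831233 to 57832579 in the terminal cluster, with differences of 0.33, 0.36 and 0.23, and 53836431 to 53837692 in the middle cluster, with 0.29. Toward lower fold the first was 52489539 to 52490352 in the middle cluster, with folds of 12.3, 8.38 and 13.0 in control and 5.94, 7.75 and 8.81 in TA libraries (−0.47 ± 0.156 SE, limma adjusted p = 0.258). After it came 56621895 to 56622375, 57751538 to 57752387 and 57485010 to 57485804 in the terminal cluster, at −0.42, −0.27 and −0.38, and 23869410 to 23870241 in the short-arm cluster, at −0.37.

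The medians of the 2 quantities behind the fold were both lower in TA, though in single members they did not always move together. A fold is the summit pileup over the local background, which MACS2 takes as the larger of the genome-wide rate and the rate in a window around the peak, with the peak's own reads in it. Both were recovered for each peak, put on a log2 scale and centred on the library's median over all shared regions. The local background at shared members had a median of −0.26, −0.31 and −0.21 in control libraries 1, 2 and 3 and −0.44, −0.46 and −0.42 in TA libraries 1, 2 and 3. Every TA library lay below every control library, by 0.181 on the log2 scale, so that the TA level was 88.2% of the control level (exact permutation p = 0.1, the smallest possible, adjusted p = 0.129 over 18 tests).

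With this centring, the same order was found in each of the 3 clusters and not in the rest of the chromosome. In the short-arm cluster the medians were −0.39, −0.50 and −0.37 in control and −0.57, −0.60 and −0.51 in TA libraries. In the middle cluster they were −0.53, −0.53 and −0.56 against −0.74, −0.74 and −0.78, and in the terminal cluster −0.13, −0.12 and −0.06 against −0.32, −0.24 and −0.24. The TA levels were 90.9%, 86.3% and 89.4% of control. In the rest of chromosome 19 the medians were 0.29, 0.27 and 0.32 against 0.27, 0.27 and 0.30, with overlap (99.4% of control, exact permutation p = 0.7). Measured against the rest of the chromosome in the same library, the clusters were lower in TA by 0.172 without overlap between groups (exact permutation p = 0.1, adjusted p = 0.129). Without the centring, the local background was also set over the library's genome-wide rate. On that scale the groups did not overlap in the middle cluster, at 1.54, 1.314 and 1.555 in control and 1.163, 1.234 and 1.136 in TA libraries. They overlapped in the short-arm cluster, at 1.697, 1.345 and 1.761 against 1.306, 1.358 and 1.372. In the terminal cluster they overlapped through control 2 (1.743) and TA 2 (1.745). The rest of chromosome 19 had 2.716, 2.294 and 2.84 in control and 2.345, 2.489 and 2.399 in TA libraries. There control libraries 1 and 3 lay above every TA library too, and the groups overlapped through control 2 alone. The genome-wide background pileup, which stands for depth, overlapped between groups, and its part in the result was not tested.

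**Figure D3:**
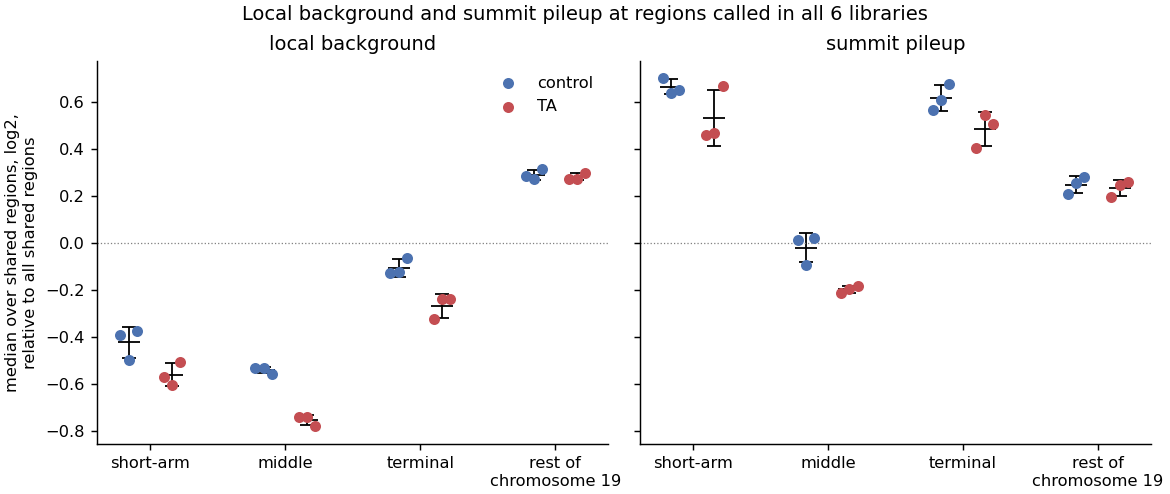
Median of the recovered local background (left) and summit pileup (right) over the shared regions of each cluster and of the rest of chromosome 19, per library (points), as log2 relative to the library's median over all shared regions, with the mean and SD of each group (n = 3). Every TA point lies below every control point for the local background in the 3 clusters and not in the rest of the chromosome, and for the summit pileup in the middle and terminal clusters.

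The order was seen in single members too. Every TA library lay below every control library in 42 of 138 members for the local background (30.4%), where 9.98% of all shared regions did. Every TA library lay above in 0 members, where 8.36% of all did. These 42 were 10 of 26 in the short-arm, 12 of 32 in the middle and 20 of 80 in the terminal cluster. The mean difference was below 0 in 114 members (82.6%) and in 47.9% of all shared regions. In 35 members at least 1 library was at the lowest background the caller allows. Without these, 34 of 103 members (33.0%) were lower in every TA library, against 11.7% of all such regions. Members with no other shared region within 10 kb had a median difference of −0.144 (103 members), and those with one within 10 kb −0.112 (35 members).

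By limma on the local background, 5 of 138 members were lower and 0 higher in TA at an adjusted p under 0.05, where 1.96% and 2.09% of all regions were. At an unadjusted limma p under 0.05, 37 were lower and 1 higher, against 8.79% and 7.87% of all regions. The 5 members, named after their values were seen, were 58325720 to 58326646 and 58330693 to 58331571 in the terminal, 53237527 to 53238561 and 53606000 to 53607309 in the middle and 23869410 to 23870241 in the short-arm cluster. The first had a local background of 9.96, 8.90 and 13.1 in control and 8.40, 6.62 and 9.90 in TA libraries (centred log2 difference −0.44 ± 0.092 SE, limma adjusted p = 0.000445). The second, 4.05 kb away, had 9.88, 8.88 and 12.1 against 7.64, 6.92 and 9.80 (−0.42 ± 0.0926 SE, limma adjusted p = 0.000886). Their windows can hold the same reads. These SE and p-values rest almost wholly on the spread that limma pooled over regions of similar level. They do not measure the spread at these single regions. The number of calls rested on single libraries: 2 members were lower without control 1, 3 without control 3 and 3 without TA 3, and without control 2 it was 19 lower (13.8%) and 7 higher (5.07%). Calls without control 2 rose over all regions too, to 8.69% lower and 14.4% higher. With quantile normalisation limma called 0, while 46 members lay below in every TA library (33.3%, and 10.7% of all regions) and 0 above.

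The summit pileup was lower in TA as well. Its centred median over shared members was 0.50, 0.45 and 0.47 in control and 0.27, 0.36 and 0.41 in TA libraries, a difference of −0.125 without overlap (exact permutation p = 0.1, adjusted p = 0.129). Every TA library lay below every control library in 27 members (19.6%), where 9.81% of all shared regions did. Every TA library lay above in 3 members (2.17%), where 9.29% of all did. The middle cluster had 0.01, −0.09 and 0.02 in control and −0.21, −0.19 and −0.18 in TA libraries. In the short-arm cluster TA 3 lay inside the control range. By limma 3 members were lower and 0 higher at an adjusted p under 0.05, where 1.15% and 1.27% of all regions were. At an unadjusted limma p under 0.05, 18 were lower and 2 higher, against 7.6% and 7.32% of all regions. Of the calls at an adjusted p, 0 were made without control 1 or without control 3, and 1 without TA 1. One of the 3 was 23869410 to 23870241 in the short-arm cluster, 290.8 kb from the nearest shared region, whose summit pileup was 87, 58 and 110 in control and 58, 34 and 60 in TA libraries (centred log2 difference −0.72 ± 0.174 SE, limma adjusted p = 0.0113). Raw pileups carry each library's depth. The others were 58095087 to 58095830, with 74, 57 and 84 against 30, 49 and 53, and 58330693 to 58331571, with 106, 88 and 136 against 58, 69 and 92.

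**Figure D4:**
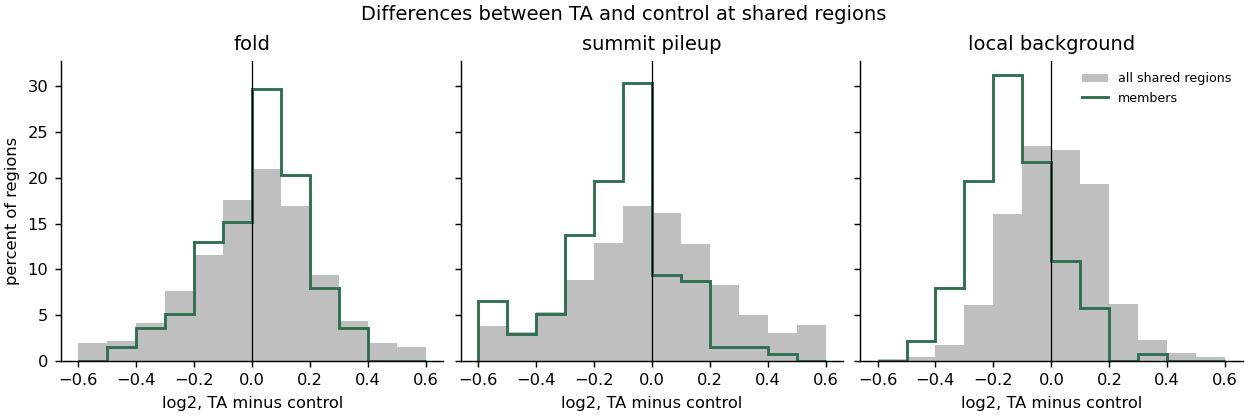
Percent of the 138 shared members (green line) and of all 56679 shared regions (grey) by their log2 difference, TA minus control, in bins of 0.1, for the fold, the summit pileup and the local background. The members sit with all regions for the fold and lie to the left of them for the local background, where 82.6% of members and 47.9% of all regions are below 0.

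The local background was also summarised along the genome. In all, 1919 bins of 1 Mb held at least 10 shared regions, and 4.48% of them had a median difference of −0.1 or lower. Of 7 such bins that touch a cluster window, 3 were that low: 53 to 54 Mb (−0.179), 58 to 59 Mb (−0.168) and 57 to 58 Mb (−0.133). The other 4 ran from −0.0392 to −0.00659. Of these, 52 to 53 Mb (−0.0392, 19 shared regions) and 56 to 57 Mb (−0.0164, 39) lie mostly within a window by length. Their medians also take in shared regions outside it. From 52.4 to 52.9 Mb the middle cluster held 11 shared members, and from 56.4 to 56.9 Mb the terminal cluster held 13. The bins 19 to 20 Mb and 54 to 55 Mb hold only the edge of a window. In the short-arm cluster no bin other than 19 to 20 Mb had enough shared regions. Of 40 bins on the rest of chromosome 19, 1 was, 44 to 45 Mb, at −0.14 over 33 shared regions. A smaller zinc finger gene cluster is known to lie there on hg19. The rest of chromosome 19, used for comparison, was thus not free of such clusters. It was not screened for others and may hold more. Its next lowest bins, 37 to 38, 12 to 13 and 9 to 10 Mb, had −0.0778, −0.0776 and −0.077 and did not reach the limit. Whether these bins hold zinc finger genes was not checked. The bin size and limit were chosen after the values were seen.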

How the data were processed

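Peaks were called with MACS2 in each of the 6 libraries separately, per the file names. Column 7 is the authors' deposited fold of the summit over local background, and columns 8 and 9 are the deposited −log10 p and −log10 q, all relative to each library's own background, which limits comparison between libraries. Aligner and MACS2 settings: not given in the sources used here. GRCh38 (with HOMER 4.9) is named in the submitters' processing notes, yet 4857 peaks end past GRCh38 chromosome ends (187 on chromosome 19) and 0 past hg19 ends (lengths from GenomeInfoDb 1.38.1). Positions are as deposited, counted from 1.

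Peaks on chromosomes 1 to 22 and X were kept (0.0168% left out). The strongest peak stood for a region in a library. Summit pileup and local background were solved from the fold and the Poisson −log10 p and matched the deposited −log10 p within 0.005 for at least 99.91% of peaks per list; these are estimates that assume equal settings, and cover no error of a single region. limma 3.58.1 (trend) was fitted on all shared regions. It was tested on simulated folds, and not on simulated local backgrounds or summit pileups. Libraries were compared by exact permutation. The sample titles number the replicates and do not say whether equal numbers pair libraries. Deviations of libraries with equal numbers had correlations of −0.00547, −0.0592 and −0.0145, so the main tests used no pairing.

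Named regions were all gained and lost members, the 3 highest folds and the widest member per cluster, and, as fewer than 5 passed limma on the fold, the 5 lowest p in each direction. The members and tests were chosen with earlier results of these data known. The local background, summit pileup and bin results were added after the data were seen. p-values describe the spread between these libraries of 1 cell line. limma pools that spread over regions of similar level. For the local background its SE and p rested almost wholly on the pooled spread, and not on a region's own.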

Additional observations from a re-analysis of the deposited data

How the results depend on the processing

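Fewer members were called in TA under every setting tried, with differences of −11.8 to −27.0 when 1 library was left out, −29.0 where peaks had to cover at least 50% of a region, and −12.3 with lists of equal length. The share of peaks kept its direction, at −0.0258 to −0.0104 points. Density and fold against the rest of chromosome 19 kept their direction in all settings, at −1.71 to −1.67 and 0.70 to 0.742 with 1 library left out, where 5 libraries cannot pass (exact permutation p = 0.0625). The relative median fold, 0.0402, was 0.0237 to 0.0510 with 1 library left out and turned to −0.125 with the summit pileup in place of the fold, by construction without the local background. The same change gave −0.132 in the short-arm and −0.133 in the terminal cluster. Leaving out 1 library gave −0.0019 (control 3) to 0.0521 in the short-arm cluster, turned by control 3, and −0.055 to 0.0158 in the middle cluster, turned by control 3 (0.0158) and TA 2 (0.0017). The median limma difference turned to −0.057 without centring and −0.0912 with the summit pileup. limma called 0 members on the fold in every setting except the summit pileup (3). The cause was not tested.

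Gained members numbered 0 to 1 and lost members 4 to 11 without 1 library. Lost members numbered 2 at −log10 q of at least 5 and 1 with lists of equal length. With the replicate block, which asks for a change in at least 2 of 3 numbers, 6 were gained (2.4%, and 5.14% of all regions) and 18 lost (7.2%, and 6.8% of all regions). The replicate block gave −18.0 called members with an exact sign-flip p that cannot go below 0.25, left 0 limma calls on the fold and 3 on the summit pileup, and lowered those on the local background from 5 to 4. Over all shared regions the replicate block raised the limma calls on the fold from 6 to 72. The local background difference of −0.181 ran from −0.205 to −0.158 without 1 library, and was −0.217 with quantile normalisation and −0.173 above the floor. Members lower in every TA library numbered 47 to 60 without 1 library (34.1% to 43.5%, and 12.9% to 23.7% of all regions). Members higher in every TA library numbered 13 without control 2 (9.42%, and 25.6% of all regions) and 0 to 2 without any other library. Absence of a peak shows only that a library did not pass its threshold there.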
